A study of Sus scrofa with 8 samples.

Results

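The extracellular matrix genes of the pig oviduct were compared between oviducts that held X-chromosome-bearing or Y-chromosome-bearing spermatozoa. The set comprised the collagens, the laminins and other named matrix genes (the proteoglycans DCN, LUM, BGN, FMOD and VCAN, and FN1, FBN1, ELN, SPARC, LOX, NID1, HSPG2, POSTN, FBLN1 and TNC). The set was chosen with earlier results of these data known. Members were taken by gene symbol alone, a rule that uses no measured value. They numbered 60 probe sets for 29 genes, out of 24123 probe sets and 6790 gene symbols on the array, and 17 of the 29 genes had more than 1 probe set. The names FMOD, ELN, NID1 and HSPG2 matched no probe set and are not analysed here. Beside 15 collagen, 3 laminin and 4 proteoglycan genes, it held 4 genes of the fibronectin and elastic fibre network and 3 of matricellular proteins.

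Collagens form the load-bearing part of the matrix. Fibrillar types build fibres in the stroma under an epithelium, and type IV forms the sheet of the basement membrane, on which laminins carry the epithelial cells. Small proteoglycans such as decorin and lumican coat collagen fibrils and set their spacing, fibronectin and fibrillin give scaffolds on which other fibres are laid, and matricellular proteins act on cells without bearing load. In the oviduct many of these genes are products of the fibroblasts and smooth muscle beneath the ciliated and secretory epithelium.

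The animals were 4 weaned crossbred Landrace × Large White sows with pre-ovulatory follicles. Flow-sorted X-spermatozoa were placed in one oviduct of each sow and Y-spermatozoa in the other by laparoscopy, after both uterine horns had been closed with staples. The doses were pooled from several boars, and each held a minority of the other sperm type. After 24 h the mucosa of each oviduct was scraped and its RNA was put on 1 Affymetrix Porcine array. This gave 4 X-spermatozoa arrays (X1 to X4) and 4 Y-spermatozoa arrays (Y1 to Y4). The number is taken here to name the sow, though the labels call it a biological replicate. Every oviduct had received spermatozoa, and an oviduct without them was not analysed here. The samples are bulk RNA, so that fewer cells of a type and less RNA per cell cannot be told apart.

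Of the markers of epithelium, 10 of 10 measured genes lay above background, among them OVGP1, the secreted oviductal glycoprotein. Markers of the layers beneath were also present, with 7 of 7 measured smooth muscle markers and 7 of 8 measured fibroblast markers above background. The background of an array was the 95th percentile of 64 reporter probe sets without a pig target, and it was 8.4 to 12.5 signal units. In this sense 38 member probe sets of 26 genes had a mean signal above background. The 22 others were 36.7% of the members, against 25.5% of all 23999 probe sets tested. COL7A1, COL10A1 and COL11A1 were the genes with no probe set of a mean signal above it. Signals below are the deposited linear values, whose levels are not compared between genes, and differences are Y-spermatozoa minus X-spermatozoa on the log2 scale after quantile normalization. Tests were two-sided limma fits over all probe sets, with Benjamini-Hochberg adjustment.

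Few matrix genes differed by sperm type beyond the spread between sows. COL11A1 was the single probe set of the 60 that passed an unadjusted p of 0.05, with a lower signal after Y-spermatozoa, against 3.56% of all probe sets (1.94% lower). After adjustment 0 of 60 passed, the smallest adjusted p being 1.0 in limma, against 0.0% of all probe sets. The median difference was 0.04 over the members and 0.00 over all probe sets. Above background the differences ran from -0.45 to 1.03, with 24 positive and 14 negative, and the lowest unadjusted p in limma was 0.0731. This p was that of a dim COL5A2 probe set, above background on 0 of 4 X-spermatozoa arrays and 3 of 4 Y-spermatozoa arrays. For 25 of these 38 probe sets the 95% interval of the difference stayed within 1 unit of 0, and for the rest it reached further. The median standard error was 0.31 for the members above background and 0.18 for all probe sets above background.

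COL11A1 encodes a chain of type XI collagen, a minor fibrillar collagen that sits inside thicker fibrils. Its brighter probe set (Ssc.15786.1.S1_at) gave 16.9, 11.2, 17.3 and 13.5 with X-spermatozoa in sows 1 to 4, and 2.4, 9.4, 8.3 and 2.3 with Y-spermatozoa. All X-spermatozoa arrays lay higher than all Y-spermatozoa arrays, which held for no other member and for 2.07% of all probe sets. The signal exceeded background on 4 of 4 X-spermatozoa arrays and on 1 of 4 Y-spermatozoa arrays, and its mean was not above the mean background of 10.7. The difference was -1.58 (standard error 0.51, limma unadjusted p = 0.0160, adjusted p = 1.0). Most Y-spermatozoa signals were not above background, and the size depends on how such values are treated, at -0.41 with signals raised to background and -0.49 with a pseudocount of 16. Without sow 1 it was -1.20 with an unadjusted limma p of 0.0918, and without sow 4 it was -1.27 with 0.0675, so that the call rests on these sows. The other probe set of COL11A1 was below background on all 8 arrays.

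With the sow as a block, 3 of 60 members passed an unadjusted p of 0.05 in limma, against 5.09% of all probe sets, and none passed after adjustment (smallest adjusted p 0.895). They were COL11A1, with a limma p of 0.0316, and a dim probe set each of SPARC and DCN. With the sow as a random block COL11A1 and this SPARC probe set passed, against 6.08% of all probe sets. The SPARC probe set (Ssc.1458.4.A1_at) gave 1.9, 1.7, 1.3 and 6.4 with X-spermatozoa and 4.8, 2.1, 7.1 and 11.2 with Y-spermatozoa in sows 1 to 4 (limma unadjusted p = 0.0664, and 0.0185 with the block). The DCN probe set (Ssc.19012.1.A1_at) gave 0.8, 3.1, 2.3 and 0.1 and then 1.6, 3.3, 2.7 and 1.7 (0.221, and 0.00968 with the block). Both lay below background on all 8 arrays, for which no fold is given, and the bright probe sets of the same genes differed by -0.01 and 0.00.

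Among the 38 probe sets above background 1 of COL5A2 and 1 of COL6A2 differed in the same direction in all 4 sows, against 14.3% of all probe sets above background. COL5A2 encodes a chain of type V collagen, which starts and thins collagen fibrils. Its probe set Ssc.16328.1.S1_at gave 22.6, 30.7, 28.3 and 27.4 with X-spermatozoa and 22.2, 34.9, 38.3 and 34.7 with Y-spermatozoa. Sow 1 was lowest in both groups, the groups overlapped, and its normalized difference within sow 1 was 0.01. Over the sows the difference was 0.28 (standard error 0.19, unadjusted limma p of 0.194), and without sow 1 it was 0.37 with an unadjusted limma p of 0.0237. The dimmer probe set of COL5A2 differed by 0.62 (standard error 0.30), which was higher in 3 of 4 sows and did not pass either. Its mean of 10.8 exceeded the mean background of 10.7 only through its Y-spermatozoa arrays, so its difference is not separate from that filter. COL6A2 encodes a chain of type VI collagen, the beaded microfibril around cells. It gave 65.8, 80.8, 60.3 and 77.2 with X-spermatozoa and 46.3, 69.9, 56.8 and 69.2 with Y-spermatozoa, a difference of -0.22 (standard error 0.18, limma unadjusted p = 0.256) with overlapping groups.

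In sows 2, 3 and 4 most matrix genes differed in one direction within the sow, which was higher with Y-spermatozoa in sows 2 and 4 and lower in sow 3, while sow 1 was near even. Of the 38 probe sets above background, 17 were higher with Y-spermatozoa in sow 1, 28 in sow 2, 8 in sow 3 and 33 in sow 4. All probe sets above background gave 49.3%, 49.4%, 51.8% and 49.5% for these sows. In sow 3 the other 30 were lower, against 48.1%. The median difference of the members was -0.03, 0.16, -0.37 and 0.31 in sows 1 to 4, while that of all probe sets lay within 0.01 of 0 in each sow. Counted once per gene, by its brightest probe set, 4 of 26 genes were higher in sow 3 and 23 of 26 in sow 4. A sow gives 1 array per sperm type, so these within-sow values have no replicate and no test, and the pattern was noticed in these same arrays.

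**Figure D1:**
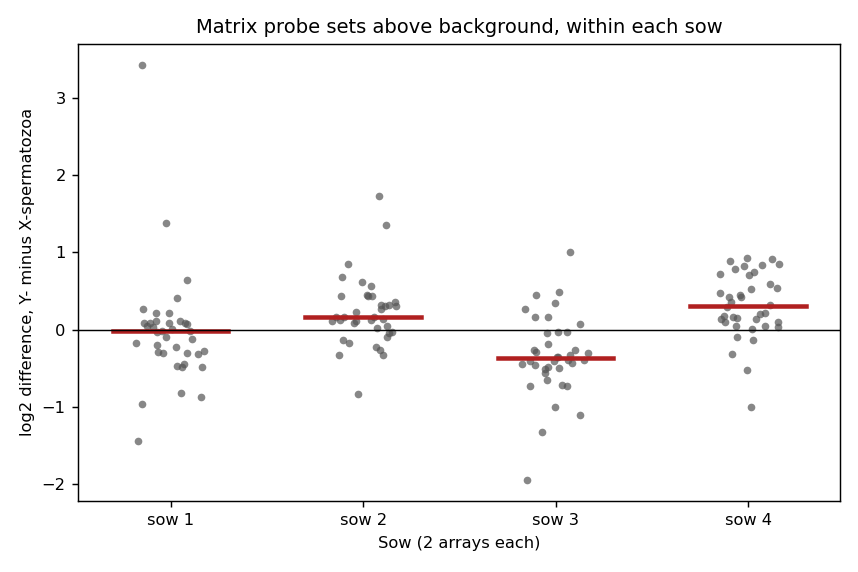
Difference on the log2 scale (Y-spermatozoa minus X-spermatozoa) on the vertical axis for each sow on the horizontal axis; points are the 38 matrix probe sets above background and red bars their medians. The medians are -0.03, 0.16, -0.37 and 0.31, with most points below 0 in sow 3 and above 0 in sow 4.

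The opposite course of sows 3 and 4 was shared by 27 of the 38 probe sets, which were lower with Y-spermatozoa in sow 3 and higher in sow 4, against 23.9% of all probe sets above background. Of these, 22 were higher in sow 2 as well, against 14.0%. Sizes were moderate. In sow 3, 11 probe sets were lower by more than 0.5 (1.41-fold), against 8.72%, and in sow 4, 13 were higher by more than 0.5, against 8.72%.

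Among the proteoglycans, DCN, the small proteoglycan that binds collagen fibrils, gave 766.0, 1078.0, 1273.2 and 794.5 with X-spermatozoa and 575.6, 1549.1, 800.2 and 1432.9 with Y-spermatozoa (Ssc.10245.2.A1_a_at). Its normalized differences were -0.45, 0.45, -0.73 and 0.75 in sows 1 to 4, and over the sows 0.00 (standard error 0.34, 95% interval -0.78 to 0.79). The groups overlapped, and the highest Y-spermatozoa arrays came from sows 2 and 4. LUM, or lumican, belongs to the same family and lies next to DCN in the RefSeq genes of pig assembly Sscrofa11.1. It gave 693.9, 910.6, 1187.7 and 1113.3, then 504.2, 1397.5, 881.1 and 1296.2 with Y-spermatozoa, with differences of -0.48, 0.56, -0.49 and 0.17. VCAN, the large proteoglycan versican, gave -0.20, 0.11, -0.56 and 0.52 by its brightest probe set. Its other probe set above background gave 0.64, 0.08, -0.51 and 0.03, and so disagreed in sows 1 and 4. The 5 proteoglycan probe sets above background had medians of -0.20, 0.45, -0.56 and 0.52. BGN, or biglycan, had the largest standard error of the members above background, with signals from 1.7 on X1 to 70.3 on Y2, a difference over the sows of 1.03 (standard error 1.15) and 2 of its 8 arrays below background.

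The genes of the fibronectin and elastic fibre network had the same order of signs, with medians of -0.23, 0.28, -0.48 and 0.77 for 6 probe sets. FN1, which encodes fibronectin, gave 214.8, 424.9, 480.5 and 249.0 with X-spermatozoa and 211.4, 581.8, 241.2 and 445.5 with Y-spermatozoa (Ssc.16743.1.S1_at). By this probe set sow 1 hardly differed between its oviducts, whereas the difference was -1.01 in sow 3 and 0.83 in sow 4 on the log2 scale. A dimmer FN1 probe set above background (Ssc.5580.1.S1_at) differed by -0.29, -0.27, -0.73 and 0.72 in sows 1 to 4. The 2 probe sets disagreed in sow 2, where the brighter one differed by 0.44. FBN1, the microfibril protein fibrillin-1, differed by -0.18, 0.12, -0.50 and 0.82, and its other probe set by -0.28, 0.68, -0.46 and 0.45. LOX, the enzyme that crosslinks collagen and elastin, differed by -0.97, 0.44, -0.44 and 0.89. FBLN1, the matrix glycoprotein fibulin-1, gave 885.3, 1328.9, 1406.7 and 1361.9 with X-spermatozoa and 1044.8, 1493.1, 1175.3 and 1636.1 with Y-spermatozoa. Its difference over the sows was 0.03 (standard error 0.20, 95% interval -0.43 to 0.49), and it was lower in sow 3 alone.

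**Figure D2:**
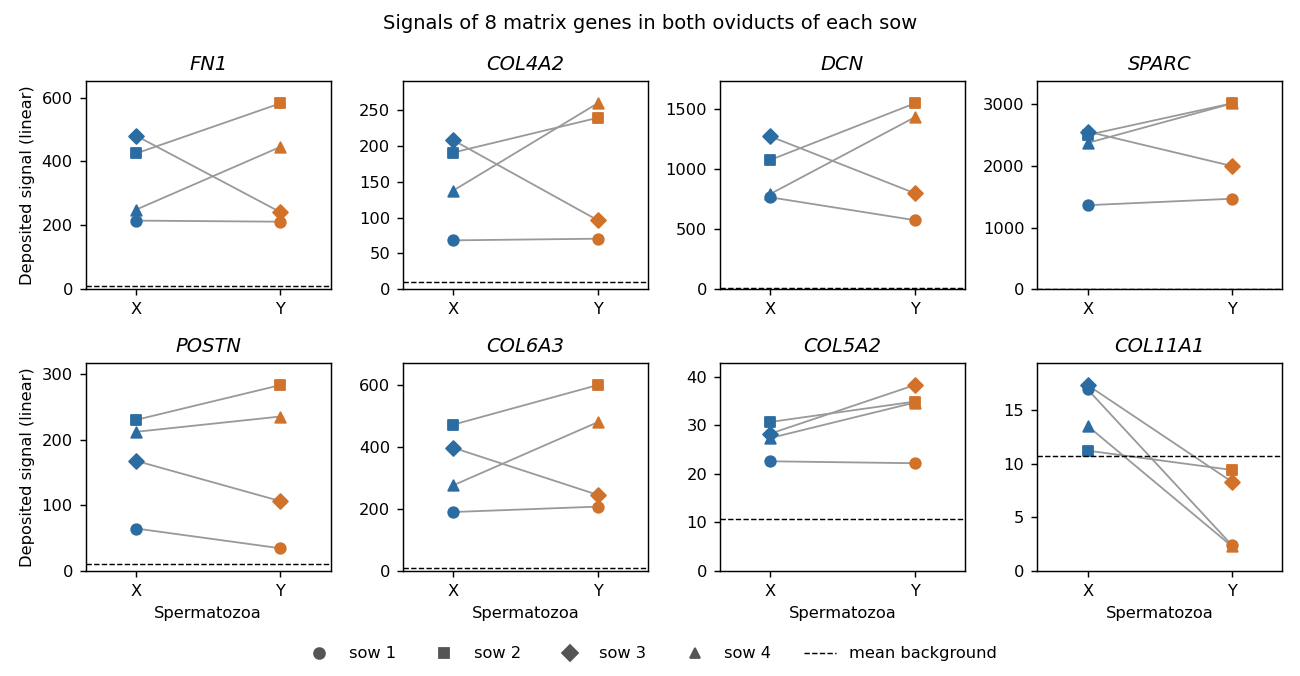
Deposited linear signal on the vertical axis for the X-spermatozoa (X) and Y-spermatozoa (Y) oviduct of each sow, for 8 matrix genes by their brightest probe set; shapes mark the sow, lines join its 2 oviducts and a dashed line marks the mean background of 10.7. FN1, COL4A2, DCN and COL6A3 are lower with Y-spermatozoa in sow 3 and higher in sows 2 and 4, and COL11A1 is lower with Y-spermatozoa in every sow.

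Basement membrane genes were COL4A2, COL15A1 and the laminin chains. COL4A2, a chain of the type IV collagen network, gave 68.2, 190.7, 207.9 and 137.6 with X-spermatozoa and 70.5, 239.1, 96.4 and 259.3 with Y-spermatozoa. Its difference was -1.11 in sow 3 and 0.91 in sow 4, and the 2 arrays of sow 1 were the lowest of all. COL15A1, which encodes a collagen at the outer face of basement membranes, gave 185.0, 253.1, 215.6 and 215.0, then 189.8, 282.8, 180.6 and 294.4 with Y-spermatozoa. Its difference over the sows was 0.10 (standard error 0.21, 95% interval -0.38 to 0.58). LAMB1, the laminin beta-1 chain, gave 252.9, 305.1, 247.1 and 332.6 with X-spermatozoa and 205.7, 372.5, 186.4 and 356.3 with Y-spermatozoa, a difference of -0.09 (standard error 0.26). The Y-spermatozoa arrays thus held both the 2 highest and the 2 lowest values of LAMB1. The 7 laminin probe sets, which also measure LAMB2 and LAMC1, had medians of -0.02, 0.12, -0.26 and 0.20, and all 7 lay above background. LAMC1, the gamma-1 chain, was measured by 4 of these probe sets, which disagreed in sow 3, at 0.16, -0.45, -0.03 and 0.16. They disagreed more in sow 1, at -0.02, -1.44, 0.09 and -0.02.

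Fibrillar collagens had smaller medians than the members above background as a whole in sows 2, 3 and 4. Their 10 probe sets above background had medians of 0.07, -0.01, -0.02 and 0.13 in sows 1 to 4. COL5A1, the other type V chain, gave 142.7, 242.2, 184.9 and 196.3 with X-spermatozoa and 115.0, 234.8, 148.3 and 203.2 with Y-spermatozoa (Ssc.9002.1.A1_at). Its difference was -0.15 (standard error 0.27, 95% interval -0.77 to 0.46), and a second bright probe set gave 0.06 (standard error 0.31). COL1A2, a chain of the abundant type I collagen, stayed between 67.9 and 99.5 on all 8 arrays, with a difference of -0.09 (standard error 0.15, 95% interval -0.43 to 0.25). COL3A1, the type III chain next to COL5A2 in the gene table, differed by 0.21, -0.84, 0.34 and 0.85, which is another order of the sows than in DCN or FN1. Its only probe set was dim, at 11.2 to 41.5, and above background on 7 of 8 arrays, which limits what this order can show. COL2A1, known as the cartilage collagen, is listed at 16.8 to 48.1, and its other probe set was below background on all 8 arrays.

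The microfibril, network and transmembrane collagens had 5 probe sets above background, with medians of -0.23, 0.32, -0.05 and 0.13 in sows 1 to 4. In sows 3 and 4 these medians were close to those of the fibrillar collagens. Of these collagens, COL6A3, the large chain of type VI collagen, gave 190.1, 471.7, 397.4 and 276.2 with X-spermatozoa and 207.5, 599.4, 245.6 and 479.6 with Y-spermatozoa. Its difference was -0.72 in sow 3 and 0.78 in sow 4, and over the sows the difference was 0.12 (standard error 0.43). COL6A2, whose product joins the same microfibril, differed by -0.05 and -0.14 in these sows. COL17A1, the transmembrane collagen of hemidesmosomes, was measured by 2 probe sets that disagreed in sow 4, at -1.01 and 0.54. COL8A1, a short-chain network collagen, differed by -0.82, 0.85, -0.03 and 0.13 by its brightest probe set.

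The matricellular genes were SPARC, POSTN and TNC, with medians of 0.09, 0.13, -0.39 and 0.16 for their 3 probe sets above background. SPARC, which binds collagen and calcium, gave 1363.6, 2503.1, 2557.3 and 2372.9 with X-spermatozoa and 1468.1, 3015.9, 1999.1 and 3013.5 with Y-spermatozoa (Ssc.1458.3.A1_a_at). Its difference was -0.01 (standard error 0.27, 95% interval -0.64 to 0.63), a sign that turned to 0.12 with arrays centred on their median and to 0.09 under the deposited scaling. POSTN, the fibroblast product periostin, gave 64.7, 230.2, 167.8 and 212.0, and 34.6, 283.2, 106.4 and 235.3 with Y-spermatozoa. Both oviducts of sow 1 were below all others in SPARC and POSTN. TNC, or tenascin-C, had another order, with 29.6, 60.8, 54.4 and 20.2 and then 31.4, 46.9, 46.6 and 26.2, so that sows 2 and 3 were above sows 1 and 4 with either sperm type.

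**Figure D3:**
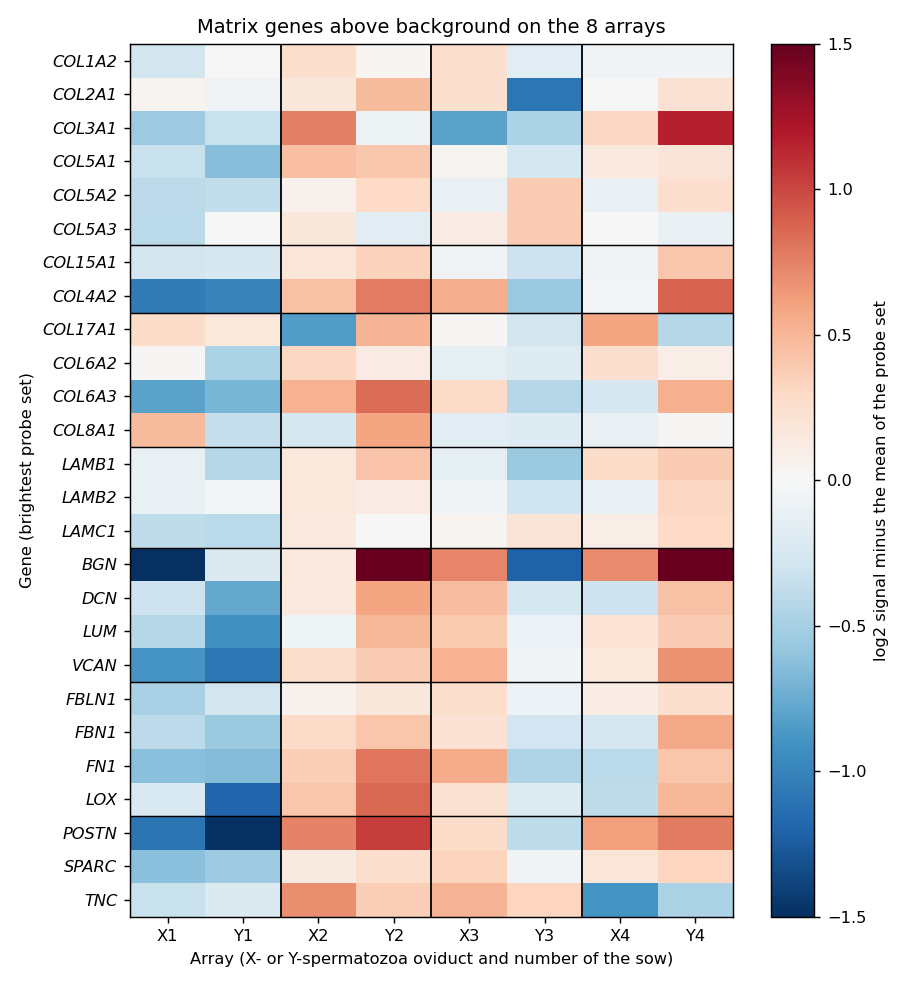
Log2 signal minus the mean of the probe set over the 8 arrays (colour, cut at 1.5 either way) for the brightest probe set of each of the 26 genes above background (vertical axis, in groups of role), by array (horizontal axis, the 2 oviducts of a sow side by side). Both columns of sow 1 are mostly blue, and Y2 and Y4 are mostly red.

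A difference between sows was tested with an F-test in limma that held the sperm type in the model, a test chosen after these values had been seen. Of the 60 members 17 passed an unadjusted p of 0.05, against 14.2% of all probe sets, and 0 passed after adjustment, against 0.0%. Above background it was 11 of 38, against 14.3%, for probe sets of COL17A1, COL5A1, LAMC1, POSTN, SPARC, TNC and VCAN. COL17A1 passed by its dimmer probe set alone, and its brighter one had an unadjusted limma F-test p of 0.902. A LAMC1 probe set (0.728) and a COL5A1 probe set (0.147) above background did not pass this F-test either. POSTN had an unadjusted p of 0.00562 and an adjusted p of 0.214 in limma. Among probe sets brighter than the median alone, 16 of 23 members passed unadjusted, against 29.4%, and 7 of 23 after adjustment, against 7.46%, which were probe sets of COL5A1, LAMC1, POSTN, SPARC and VCAN. Sow 1 was the lowest sow in both groups for 20 of the 38 probe sets above background, against 10.4%, and without it 10 of 60 passed unadjusted, against 11.8%. Without sow 3 it was 23 of 60, against 11.7%. With signals raised to background 11 of 60 passed, against 16.9%.

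The members also spread more than other probe sets within a sperm type. The SD within groups had a median of 0.47 on the log2 scale for the members above background and of 0.26 for all probe sets above background. Among probe sets brighter than the median it was 0.41 for the 23 members and 0.21 for all, and 18 of the 23 lay above the 75th percentile of all such probe sets, which was 0.30.

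Markers of the stroma differed in the same sows. The smooth muscle markers, which include the actins ACTA2 and ACTG2, were lower with Y-spermatozoa in sow 3 for 7 of 7 genes and higher in sow 4 for 7 of 7, with sow medians of -0.26, -0.39, -1.69 and 0.81. Unlike the members, they were higher in sow 2 for 1 of 7 genes. Their summed signal ran from 2700 to 8020 with X-spermatozoa and from 1830 to 7090 with Y-spermatozoa. Fibroblast markers had sow medians of -0.12, 0.50, -0.52 and 0.55, with summed signals of 2380 to 3620 and 2280 to 4220, and MEOX2 was below background on all arrays. Epithelial markers had medians of 0.13, -0.05, 0.15 and 0.10, with summed signals of 15000 to 17700 and 17700 to 18500. These sums are of deposited signals and rest largely on the brightest genes. OVGP1 gave 5841.4 to 8469.1 with X-spermatozoa and 7768.9 to 9314.9 with Y-spermatozoa, and differed by 0.02 after normalization. Quantile normalization gives probe sets of the same rank the same value on every array. For a gene this bright the 0.02 therefore cannot show whether OVGP1 differed. The median normalized difference of the epithelial markers over the sows was 0.07. VIM, the brightest fibroblast marker, differed by -0.02. The part of these cells in the differences of the matrix genes was not tested.

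**Figure D4:**
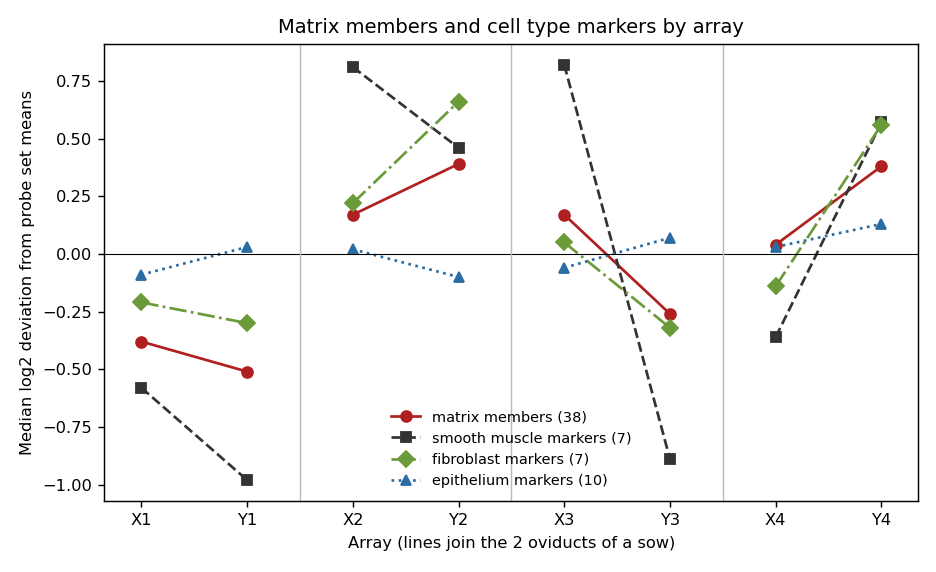
Median log2 deviation from the probe set means on the vertical axis, by array on the horizontal axis, for the 38 matrix probe sets and for the smooth muscle (7), fibroblast (7) and epithelium (10) markers above background; lines join the oviducts of a sow. The matrix genes run from -0.51 on Y1 to 0.39 on Y2, and the smooth muscle markers from -0.98 on Y1 to 0.82 on X3.

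The remaining marker lists were endothelium, with 10 of 10 genes measured and 8 above background, leukocytes with 9 of 11 and 5, ciliated cells with 3 of 10 and 3, and red cells with 3 of 6 and 2. Over all 7 marker lists 1 of 50 measured genes passed an unadjusted p of 0.05 in limma, against 3.56% of all probe sets. This was PTPRC, the pan-leukocyte antigen CD45, at 5.0 to 9.2 with X-spermatozoa and 8.8 to 15.7 with Y-spermatozoa (limma unadjusted p = 0.0171, adjusted p = 1.0), above background on none of the X-spermatozoa arrays and on 2 of the Y-spermatozoa arrays. It did not pass with signals raised to background (0.21, limma unadjusted p = 0.185) or without sow 2 (0.45, limma unadjusted p = 0.0690). With the sow as a block 4 of 50 passed, against 5.09% of all probe sets. Beside PTPRC these were the fibroblast marker DPT (0.44, limma p of 0.0238), the endothelial marker VWF (0.49, limma p of 0.0422) and the red cell marker ALAS2 (0.44, limma p of 0.0115), each higher with Y-spermatozoa in 4 of 4 sows, and none passed after adjustment. Their lists did not move as one. The other red cell markers went the other way, HBB at -0.08, lower in 4 of 4 sows, and the dim AHSP at -0.33. Of the 7 fibroblast markers above background 3, 7, 3 and 7 were higher with Y-spermatozoa in sows 1 to 4. For the 8 endothelial markers above background it was 3, 7, 4 and 8. The sow medians of the endothelial markers were -0.24, 0.29, 0.01 and 0.36 and those of the leukocyte markers 0.17, 0.91, -0.24 and 0.39.

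Among genes that act on the matrix or lie within it, 2 of the 58 measured passed an unadjusted p of 0.05 in limma, both dim and both lower with Y-spermatozoa, against 3.56% of all probe sets (1.94% lower). Of the receptors (integrins, syndecans, glypicans and others), 14 of 27 listed genes were measured and 0 passed an unadjusted p of 0.05 in limma in either direction. The smallest p above background was that of ITGB5, an integrin beta chain, whose mean signals were 181 ± 7.11 (SD) after X-spermatozoa and 209 ± 34.2 (SD) after Y-spermatozoa (n = 4 each), a difference of 0.19 (standard error 0.13, limma unadjusted p = 0.180), which was 0.08 without Y1. Of the genes of collagen folding, trimming and crosslinking 11 of 24 were measured, with 0 higher and 1 lower. This was SUMF1, which activates sulfatases and is no collagen enzyme, at 4.0 to 15.0 and 1.7 to 5.0 (limma unadjusted p = 0.0442), above background on 1 array. The SUMF1 call was lost with signals raised to background (limma unadjusted p = 0.337), with a pseudocount of 16, in the plain pooled-variance test, and without sow 1, 2 or 4 or any of several single arrays (for the sows, limma unadjusted p = 0.146, 0.0901 and 0.0611). The smallest p above background in this list was that of CRTAP, a partner of collagen prolyl hydroxylation, with a difference of 0.22 (standard error 0.18), which was 0.07 without X1.

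Of other matrix genes 19 of 45 were measured and 0 passed in either direction, and the smallest p above background was that of THBS3, a thrombospondin, with a difference of 0.28 (standard error 0.15, limma unadjusted p = 0.103), which was 0.15 without sow 1. Their sow medians were -0.33, 0.01, -0.50 and 0.39, and 15 of the 17 above background were higher with Y-spermatozoa in sow 4. Of the matrix proteases and their inhibitors 14 of 22 were measured, with 0 higher and 1 lower. This was MMP3, or stromelysin-1, at 6.6 to 9.9 with X-spermatozoa and 1.4 to 6.7 with Y-spermatozoa, below background on all 8 arrays (limma unadjusted p = 0.0296). The MMP3 call was lost with signals raised to background, where the difference is 0, in the plain pooled-variance test, and without sow 1 or sow 2 or any of several single arrays (for the sows, limma unadjusted p = 0.0936 and 0.110). MMP7, or matrilysin, an epithelial metalloproteinase, gave 17.8, 35.3, 18.4 and 42.7 with X-spermatozoa and 23.1, 32.5, 55.3 and 302.5 with Y-spermatozoa. One array, Y4, stood far above the rest, and the difference of 1.21 (standard error 0.79, limma unadjusted p = 0.165) did not pass and was 0.43 without Y4. In all 4 lists 0 genes passed after adjustment.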

How the data were processed

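The deposited values are linear signal intensities, 1 per probe set, which the authors made with Microarray Suite (MAS5 version 5.1, per the labels) and scaled to a trimmed mean of 100.0 per array. The RMA values and detection calls of the methods were not used here. Signals of 24123 probe sets were quantile normalized, the 124 AFFX controls were left out, a floor of 1 was set and values were put on the log2 scale. Groups were compared with limma 3.58.1 in R 4.3.3 (lmFit, eBayes, all 8 arrays, no block), with Benjamini-Hochberg adjustment over 23999 probe sets. Tables and figures were made with Python 3.11.15 and matplotlib 3.10.9. The test was tried on simulated data. Gene symbols come from the platform annotation (1 symbol for 10140 probe sets, several for 157, none for 13826), and all 29 member genes are in the gene table of assembly Sscrofa11.1.

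The labels number the arrays of each sperm type as biological replicates and do not name the sow. Arrays of the same number were taken as the 2 oviducts of a sow. The 2 arrays of a number deviated together from their group means (r of 0.132 to 0.187 across genes, for 4 of 4 numbers). Arrays of different numbers were not compared in this way, so these values do not show that a number is a sow. On the pairing by number, the sow was used as a block in an alternative. Values on all arrays are given for members past an unadjusted p of 0.05 with or without the block, those with groups that do not overlap, those above background with 1 direction in 4 sows, and the brightest of each role; FN1, COL4A2, LUM, POSTN and TNC were added after their values were seen. Of the 4 related lists (receptors, collagen assembly, other matrix, breakdown) the gene with the smallest p above background is named, and every listed gene past the threshold. The members and lists were chosen with earlier results of these data known. Other alternatives were a random block, arrays centred on their median, the deposited scaling, a pseudocount of 16, a floor at background, brighter probe sets alone, a variance trend, a plain pooled-variance test, 1 probe set per gene, and leaving out arrays or sows. The number of arrays limits the precision.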

Additional observations from a re-analysis of the deposited data

Results flagged for a closer look

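Among 76 groups of 4 arrays (38 matrix probe sets above background with each sperm type), 2 held an array that stood apart by Dixon's criterion, which is 2.63%, where chance gives about 5%. BGN, which encodes biglycan, had its lowest X-spermatozoa signal in sow 1 at 1.7, against 21.9 to 33.9 in the other sows. This BGN signal lay below the background of its array, which limits what its distance from the others can show. COL5A2, a type V collagen chain, had its lowest Y-spermatozoa signal in sow 1 at 22.2, against 34.7 to 38.3 in the others. The values given here are deposited linear signals, on which neither array passed the criterion. Whether these arrays stand apart therefore depends on how the signals are scaled.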

How the results depend on the processing

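The count of members past an unadjusted p of 0.05 in limma was 1. It was 3 with the replicate block (pairing by sow), 2 with the random block, 2 with a pseudocount of 16, 2 with a floor at background and 0 with brighter probe sets alone, which leave COL11A1 out. Leaving out 1 array gave 1 to 3 (3 without Y4), leaving out 1 sow gave 1 to 2, and the block with 1 sow left out, chosen after seeing the data, gave 2 to 4. The median difference of the members, 0.04, ran from -0.11 to 0.20 with 1 array left out and from -0.08 to 0.08 with 1 sow left out. The 17 members that differed between sows became 11 with a floor at background and 10 to 23 with 1 sow left out, 10 being without sow 1; this test and its alternatives were chosen after seeing the data.

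Among the named members, signs turned for 6 whose difference was at most 0.15 either way. For SPARC (-0.01) the value was 0.12 after median centring of the arrays and 0.09 with the deposited scaling kept. With 1 array or sow left out, SPARC ran from -0.22 to 0.18, COL6A3 (0.12) from -0.14 to 0.41, COL15A1 (0.10) from -0.02 to 0.22, FBLN1 (0.03) from -0.13 to 0.16, LAMB1 (-0.09) from -0.25 to 0.08 and COL5A1 (-0.15) from -0.31 to 0.04. DCN, at 0.00, ran from -0.24 to 0.26 in the same way and was 0.11 after median centring. Of 392 alternative values for 12 member probe sets and 7 genes of other lists, 337 kept direction and side of the threshold, 23 changed sign, 24 lost the threshold and 8 gained it. The 337 include the values of the bright DCN probe set, which took both signs, because its difference of 0.00 gave no direction to keep. The cause was not tested. The counts within sows stayed within 1.5 times under array centring and the deposited scaling. The dim signals of COL11A1, MMP3, SUMF1 and PTPRC limit what their differences can show.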
